A study of Mus musculus with 6 samples.

Results

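The genes described here are 9 antioxidant genes of the NRF2 pathway: Nfe2l2, which encodes NRF2, Keap1, Slc7a11, Gclc, Gclm, Txnrd1, Srxn1, Nqo1 and Hmox1. They were chosen by name from what is known of the pathway, with earlier results of these data known, and are 9 of 21757 protein-coding genes in the annotation used (GENCODE M39, build GRCm39). For each gene, every accessible interval that overlapped the stretch from 3 kb upstream of the gene start to the gene end was taken. This gave 141 intervals of 279569 in the whole list. Chromatin accessibility had been profiled by ATAC-seq, which reads out where a transposase can reach the DNA, in nuclei of mouse kidney cortex. By the labels there are 3 WT and 3 Acly cKO libraries, all with the treatment label Control. Acly cKO mice carry Acly fl/fl with Ksp-Cre (Cdh16-Cre), which recombines broadly in the tubular epithelium. The study describes the model as selective for that epithelium, and the study's controls are littermates with Acly fl/fl that lack Cre. The study's methods give an age for the mice of its injury models but do not tie it to these libraries.

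The deposited peak list is 1 call over all libraries together. Without columns for single libraries, no comparison of the genotypes was possible, no value has a replicate error, and library depth is unknown. The batch labels are 1 and 2 for WT and 4 and 5 for Acly cKO, so the effect of batch and that of genotype cannot be told apart. The pooled call may also hold further WT libraries that the study deposited earlier, since the files do not name its libraries. All values below are therefore those of a kidney pool of both genotypes. The fold enrichment of a summit, the local maximum of an interval, is the pileup of reads there over the background of the call, and its -log10 q is the caller's measure of significance. Where an interval has several summits, the one with the highest -log10 q stands for it.

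NRF2 is a transcription factor that KEAP1, bound to the ubiquitin ligase subunit CUL3, marks for degradation. When electrophiles or oxidants modify KEAP1, NRF2 accumulates, pairs with a small MAF protein and binds the antioxidant response element (ARE) near genes for glutathione synthesis, thioredoxin recycling, quinone reduction and haem breakdown. In the kidney, the tubular epithelium has a high oxidative load and the pathway is known for limiting tubular injury.

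The ARE core, the letters that NRF2 with a small MAF protein is known to recognise, is shown where it occurred near accessible summits of these genes. The core was searched as TGACNNNGC on both strands. For each gene, 1 match that stood within 100 bp of a summit with a fold enrichment of at least 5 is given, namely the match at the highest such summit. Nqo1 had no such match. Thus 8 of the 9 genes had one, against 33.9% of protein-coding genes under the same rule, but the 9 genes also had more intervals in which to find it, 10 at the median against 4. The Hmox1 matches of this kind, 3911 and 3416 bp before the TSS, lie outside the 3 kb limit. They count because their interval reaches over it. Each stretch is 70 bases of GRCm39, read on the strand on which the match reads TGAC, and the capitals mark the match.
Nfe2l2, chr2:75511874-75511943, plus strand: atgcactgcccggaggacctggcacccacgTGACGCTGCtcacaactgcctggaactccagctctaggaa
Keap1, chr9:21150106-21150175, plus strand: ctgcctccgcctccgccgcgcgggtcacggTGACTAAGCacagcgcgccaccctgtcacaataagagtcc
Slc7a11, chr3:50397682-50397751, minus strand: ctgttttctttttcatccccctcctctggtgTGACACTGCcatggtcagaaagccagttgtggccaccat
Gclc, chr9:77657997-77658066, minus strand: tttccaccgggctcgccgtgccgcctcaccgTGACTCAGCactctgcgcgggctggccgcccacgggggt
Gclm, chr3:122039042-122039111, minus strand: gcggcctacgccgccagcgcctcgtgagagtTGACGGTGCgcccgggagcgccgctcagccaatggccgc
Txnrd1, chr10:82694918-82694987, minus strand: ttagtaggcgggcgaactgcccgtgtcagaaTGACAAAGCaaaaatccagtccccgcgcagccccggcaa
Srxn1, chr2:151947442-151947511, minus strand: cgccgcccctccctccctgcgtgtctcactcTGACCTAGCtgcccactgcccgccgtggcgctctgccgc
Hmox1, chr8:75816296-75816365, minus strand: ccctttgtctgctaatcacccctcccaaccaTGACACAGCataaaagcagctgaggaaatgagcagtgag

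Of these 8 matches, the Gclc match alone has the letters TGACTCAGC, which also hold TGACTCA, the site of AP-1 factors. The Gclm match lay at the centre of the 62.1-fold summit of its promoter, 50 bp upstream of the transcription start site (TSS). The Keap1 match lay 10 bp and the Gclc match 11 bp from their summits, and the Nfe2l2 match 13 bp from a 10.7-fold summit in the body of the gene. The matches of Txnrd1, Hmox1, Slc7a11 and Srxn1 lay 51, 61, 78 and 92 bp from theirs. The sign of the shift used for the peak call cannot be told from the methods, so summits may be offset and these distances are approximate. A match is a description of the letters and shows no binding.

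A further stretch is shown because it holds the core 3 times. It lies upstream of the Hmox1 region, around the 48.0-fold summit 9626 bp before the TSS, and the capitals mark the 3 copies of TGACTCAGC.
Hmox1, chr8:75810557-75810662, minus strand: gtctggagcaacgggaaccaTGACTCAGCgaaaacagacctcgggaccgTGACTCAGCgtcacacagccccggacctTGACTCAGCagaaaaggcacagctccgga

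The 3 copies lay 9660, 9632 and 9603 bp before the Hmox1 TSS, all within 34 bp of the summit. At least 1 copy of TGACTCAGC stood in 2996 of the 279569 windows of 200 bp centred on the top summit of an interval (1.07%), and at least 3 copies in 12 of them. This count was made after the stretch had been seen.

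All 9 genes had an accessible interval at the promoter, that is, overlapping 1 kb either side of the TSS of the canonical transcript, where 75.8% of protein-coding genes had one. A fold enrichment of at least 5 was reached by 9 of 9 promoters, against 66.2% of protein-coding genes, and of at least 20 by 8 of 9, against 49.3%. The median promoter fold enrichment was 43.4 for the 9 genes and 19.4 over all protein-coding genes, with genes without an interval set to 0. Those 5258 genes also count as 0 wherever a promoter is said below to stand above a percentage of protein-coding genes. In order, the promoter folds were 78.6 for Nfe2l2, 62.1 for Gclm, 58.5 for Hmox1, 47.7 for Srxn1, 43.4 for Gclc, 40.0 for Txnrd1, 33.7 for Keap1, 28.4 for Nqo1 and 12.6 for Slc7a11. Without a replicate error, no neighbours in this order can be said to differ. The gene for the transcription factor stood at the top of the order and the gene for the cystine transporter at the bottom.

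**Figure D1:**
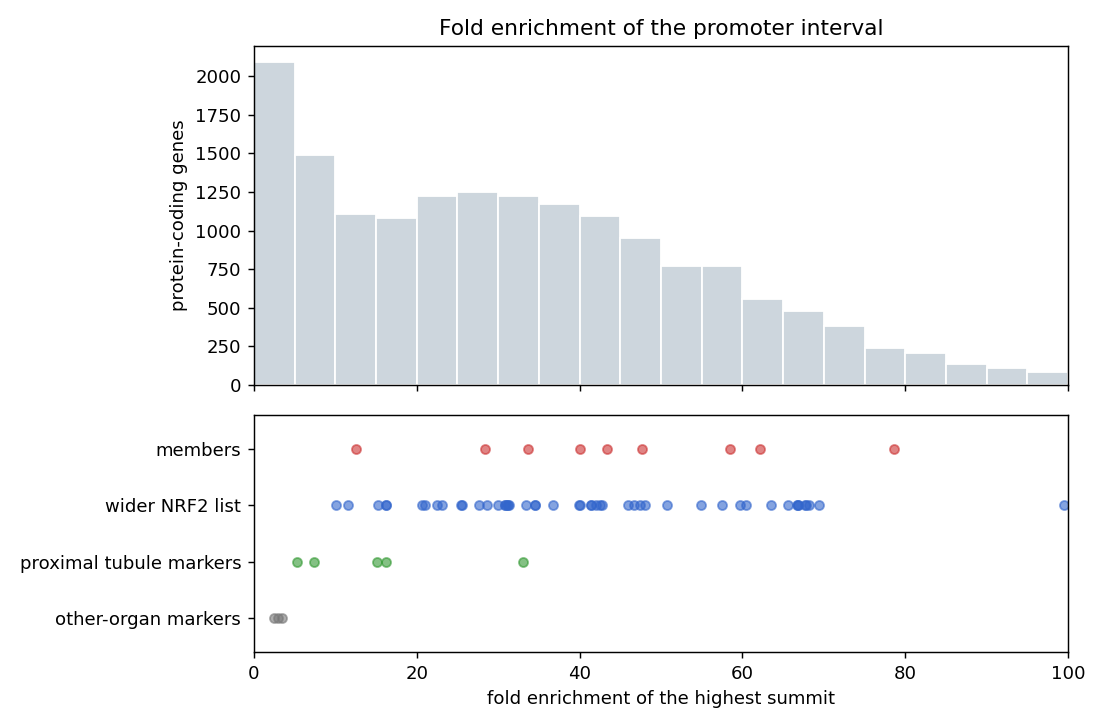
Fold enrichment of the highest summit of the promoter interval, for all protein-coding genes with a promoter interval in bins of 5 (top; 5258 genes without one and 95 genes at 100 or more are not drawn) and for single genes of 4 lists (bottom, 1 point per gene). The 9 members lie between 12.6 and 78.6, and the other-organ markers with a promoter interval at the canonical TSS all lie under 5.

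Over the whole regions, the 141 intervals held 479 summits and their fold enrichment ran from 1.70 to 78.6, with a median of 2.88 against 2.55 over all intervals. A fold enrichment of at least 5 was reached by 37 of the 141 (26.2%), close to the 24.5% of all intervals. Their median width was 549 bp, against 434 bp over all intervals. The highest summit lay in an intron of the canonical transcript in 69 intervals and in an exon in 20, and 9 intervals, 1 per gene, touched the promoter. Of those in neither place, 23 lay beyond the canonical transcript of Slc7a11 and 17 upstream of the canonical TSS of Txnrd1. Introns and exons were not counted over all intervals, so these numbers have no background. The highest summit of the region lay more than 1 kb from the canonical TSS in 2 of the 9 genes, Gclc and Slc7a11, as it did in 36.9% of the 18102 protein-coding genes with an interval.

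**Figure D2:**
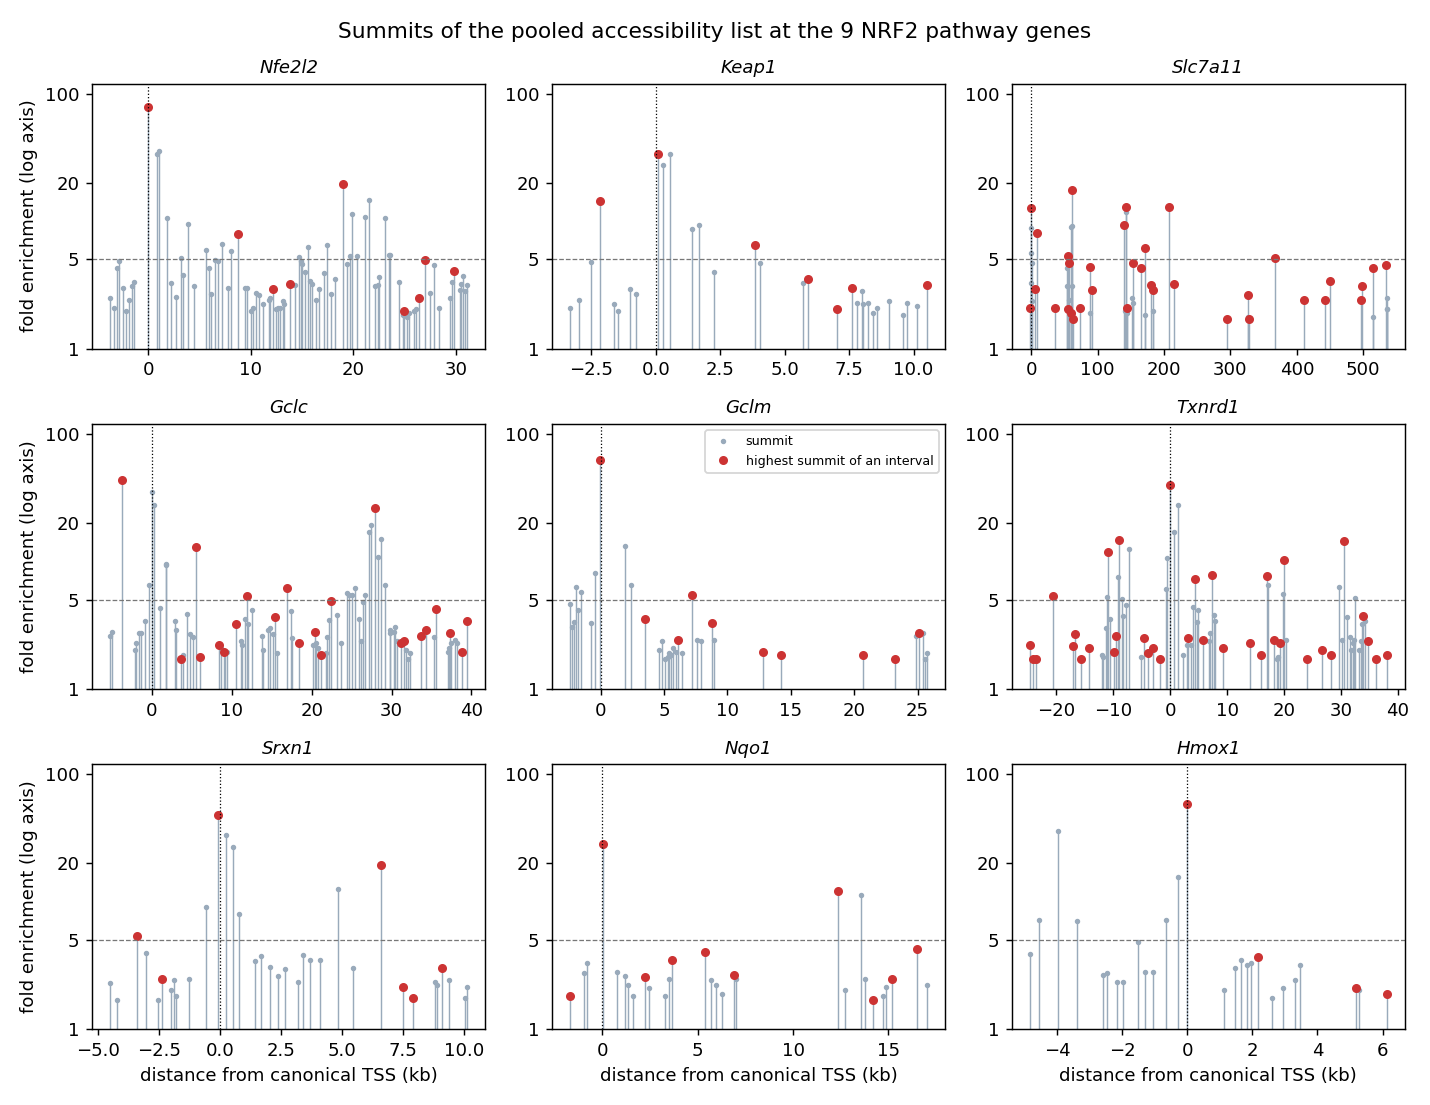
Fold enrichment (log axis) of every summit in the intervals of each gene against its distance from the canonical TSS in kb, with positive values in the direction of transcription. Grey points are summits, red points the highest summit of each interval, the dotted line the TSS and the dashed line a fold enrichment of 5; in 7 of the 9 panels the highest point lies at the TSS, and in those of Gclc and Slc7a11 it lies away from it.

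The region covered by intervals was 73.4% at the median of the 9 genes and 16.7% at the median of protein-coding genes. Nfe2l2 had 91.9% of its region covered, Srxn1 85.6%, Keap1 76.9%, Gclc and Hmox1 73.4% each, Nqo1 48.9%, Txnrd1 39.6% and Gclm 38.6%. Slc7a11 was the exception, with 4.09%. The number of intervals per 10 kb ran from 0.632 at Slc7a11 to 5.53 at Keap1, with a median of 5.24 against 1.86 over protein-coding genes. The 9 regions had a median length of 28900 bp against 22200 bp for protein-coding genes.

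**Figure D3:**
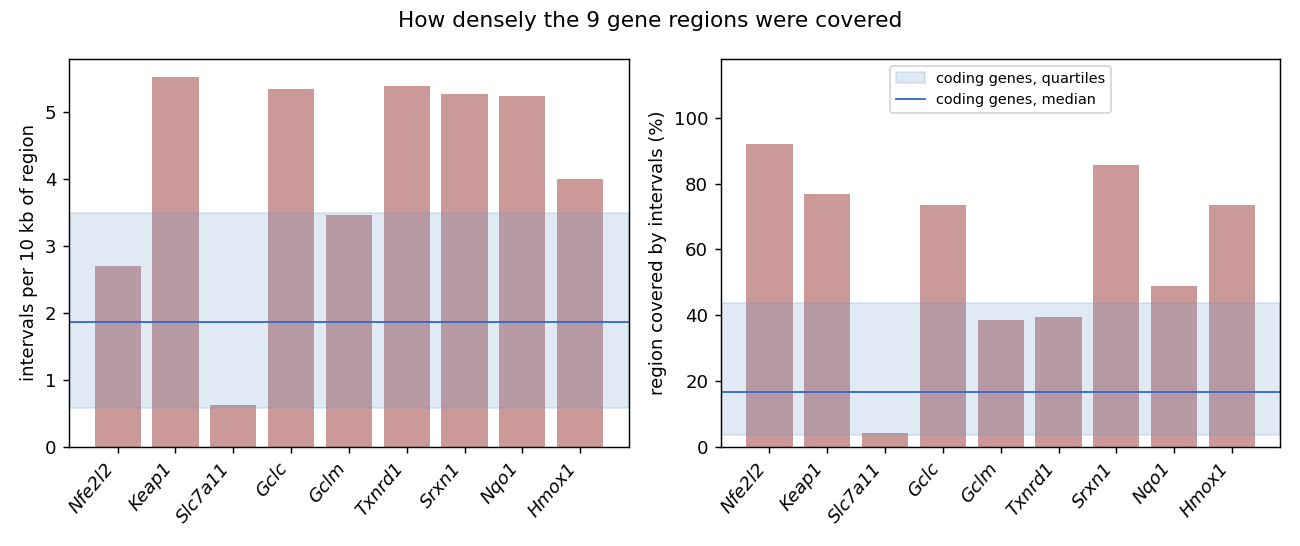
Intervals per 10 kb of region (left) and share of the region covered by intervals in percent (right) for the 9 genes, as bars. The blue line is the median of all protein-coding genes and the shaded band spans their quartiles; Slc7a11 is the only bar below the blue line in either panel.

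Nfe2l2, the gene for NRF2 itself, lies on chromosome 2 from 75504739 to 75534985 on the minus strand. It held 9 intervals. The promoter interval was 8631 bp wide with 19 summits and a -log10 q of 1794. Its highest summit, 2 bp from the TSS in exon 1, had a fold enrichment of 78.6, above 96.8% of protein-coding genes. In the same interval, summits of 33.5-fold and 35.3-fold followed at 822 and 1058 bp. The next interval by fold lay in intron 1, 19042 bp into the gene, with a fold enrichment of 19.7, and was 10388 bp wide with 28 summits. It contains the match TGACGCTGC printed above, 23077 bp from the TSS. Another interval in intron 1, 8775 bp into the gene, had a fold enrichment of 7.86. Called intervals of Nfe2l2 therefore ran on from the promoter through much of the first intron, but not all were strong. Only 3 of the 9 reached 5-fold, and those between the 7.86-fold and the 19.7-fold interval reached 2.95-fold and 3.21-fold.

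Keap1, whose product holds NRF2 for degradation, lies on chromosome 9 from 21141026 to 21150679 on the minus strand and held 7 intervals. Its promoter interval had a -log10 q of 582 and near-equal summits of 33.7-fold 97 bp into exon 1 and 33.6-fold at 549 bp, with one of 27.4-fold between them at 274 bp. The match TGACTAAGC stood beside the summit at 549 bp. An interval 2169 bp upstream of the TSS had a fold enrichment of 14.3, and one in intron 2, 3867 bp into the gene, 6.55. Further upstream, the strongest interval within 10 kb reached 10.7-fold, but its summit lay 9 bp from the TSS of S1pr5, another gene. The promoter value of Keap1 stood above 66.2% of protein-coding genes.

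Slc7a11 encodes the transport subunit of the cystine-glutamate antiporter, which brings in the cystine for glutathione. On chromosome 3 it runs from 49846975 to 50398070 on the minus strand. A single long transcript extends the gene to 551096 bp, while the canonical transcript spans 78677 bp. Of its 35 intervals, 23 had their highest summit beyond the end of the canonical transcript, and only 12 overlapped the canonical transcript and the 3 kb before it. Its promoter was the weakest of the 9, with 12.6-fold enrichment and -log10 q 139 at a summit 26 bp upstream of the TSS. That value was above 43.3% of protein-coding genes, a share that includes the 5258 genes with no promoter interval. The strongest interval of the gene lay in intron 8, 61884 bp from the TSS, with 17.7-fold enrichment and -log10 q 233. Beyond the canonical transcript, intervals of 13.0-fold, 12.9-fold and 9.36-fold lay 207427, 142836 and 139292 bp from the TSS. The match TGACACTGC of Slc7a11 stood 347 bp into the gene, beside a 5.63-fold summit. No other gene of the 9 had its highest fold in an intron of its canonical transcript.

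Gclc encodes the catalytic subunit of glutamate-cysteine ligase, the enzyme that limits the rate of glutathione synthesis. The gene, on chromosome 9 from 77661797 to 77701770 on the plus strand, held 23 intervals. The promoter interval was 8742 bp wide with 16 summits, and its highest summit was not at the TSS. It lay 3755 bp upstream, with 43.4-fold enrichment and -log10 q 822, while the highest summit within 1 kb of the TSS, 54 bp into the gene, had 34.9-fold enrichment and -log10 q 611. The upstream summit is the one with TGACTCAGC beside it, 3766 bp from the TSS. This summit lies outside the 3 kb limit, and the interval counted because it reaches over the promoter. A second strong stretch lay in intron 6, 27880 bp into the gene, with 26.2-fold, 21 summits and a width of 7827 bp. Intron 1 held an interval of 13.0-fold at 5486 bp, one of 6.15-fold at 16898 bp that contains the core TGACCTAGC 15 bp from its summit, and one of 5.37-fold at 11898 bp. Upstream of the region, 9558 bp before the TSS, an interval of 20.7-fold was called.

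Gclm encodes the modifier subunit of the same ligase. It lies on chromosome 3 from 122039126 to 122065061 on the plus strand, and 1 sharp summit dominated its 10 intervals. That summit had 62.1-fold enrichment and -log10 q 1322, above 90.7% of protein-coding genes, and carried TGACGGTGC at its centre. The only other interval of at least 5-fold inside the region was of 5.50-fold in intron 1, 7188 bp into the gene. Upstream, an interval 9503 bp before the TSS had a fold enrichment of 13.9. Of the intervals at the ligase subunits, 5 of 23 at Gclc and 2 of 10 at Gclm reached 5-fold, close to the 24.5% of all intervals.

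Txnrd1 encodes the cytosolic thioredoxin reductase. The gene, on chromosome 10 from 82669785 to 82733546 on the plus strand, held 36 intervals, the most of the 9. The canonical TSS lies 25228 bp inside the gene, since a longer transcript starts upstream, and 17 intervals had their highest summit upstream of it. The promoter interval of the canonical TSS had 40.0-fold enrichment and -log10 q 736 at a summit 112 bp upstream. TGACAAAGC stood 61 bp before the TSS. Between the outer and the canonical start, intervals of 14.9-fold and 11.8-fold lay 8998 and 10899 bp before the canonical TSS, and intron 12 held one of 14.4-fold, 30610 bp into the gene. In intron 4, 20025 bp into the gene, an interval of 10.3-fold held 2 ARE core matches, TGACTTAGC and TGACTCTGC, 45 and 40 bp to either side of its summit. An interval of 7.79-fold 7417 bp into Txnrd1 had its summit 30 bp from the TSS of Eid3, a gene nested inside Txnrd1. Another of 7.79-fold lay upstream of the region, 34467 bp before the canonical TSS.

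Srxn1 encodes sulfiredoxin, which repairs overoxidised peroxiredoxins. It lies on chromosome 2 from 151947436 to 151957687 on the plus strand and held 7 intervals. The promoter interval had 47.7-fold enrichment and -log10 q 932 at a summit 60 bp upstream of the TSS, with further summits of 33.4-fold and 27.1-fold 249 and 514 bp into the gene. Its TGACNNNGC match lay 32 bp past the TSS, but the AP-1 letters TGACTCA occurred 2 times nearer the summit, 99 and 42 bp before the TSS, and capitals mark both copies in the stretch that follows. A second interval, 6585 bp into the gene in exon 2, the last exon, reached 19.4-fold, and one 3412 bp before the TSS had 5.37-fold. Upstream, 5777 bp before the TSS, an interval of 9.43-fold was called.
Srxn1, chr2:151947322-151947425, minus strand: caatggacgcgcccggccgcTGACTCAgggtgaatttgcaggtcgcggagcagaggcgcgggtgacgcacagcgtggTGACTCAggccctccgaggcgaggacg

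Nqo1 encodes a reductase that turns quinones into hydroquinones, and is widely used as a readout of NRF2 activity. It lies on chromosome 8 from 108113835 to 108129934 on the minus strand and held 10 intervals. The promoter interval had 7 summits, 28.4-fold enrichment and -log10 q 460 at a summit 61 bp into exon 1, above 60.1% of protein-coding genes. Apart from Slc7a11, it was the lowest promoter fold of the 9. The only other interval of at least 5-fold lay in intron 5, 12374 bp into the gene, with a fold enrichment of 12.2. No TGACNNNGC match stood within 100 bp of an Nqo1 summit of at least 5-fold, and 3 stood anywhere in its intervals. Many AREs have G in place of the C of this core, so TGAGNNNGC was also searched, a choice made after the data were seen. In the Nqo1 promoter interval it matched once, as TGAGTCGGC 335 bp upstream of the TSS and 396 bp from the summit, shown in capitals.
Nqo1, chr8:108130235-108130304, minus strand: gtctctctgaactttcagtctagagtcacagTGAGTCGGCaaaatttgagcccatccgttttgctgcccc

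Hmox1 encodes haem oxygenase 1, which breaks haem down to biliverdin, iron and carbon monoxide. Its gene, on chromosome 8 from 75820241 to 75827217 on the plus strand, held 4 intervals, the fewest of the 9, and only its promoter interval reached 5-fold. That interval was 5905 bp wide with 14 summits. Its highest summit, 7 bp before the TSS, had 58.5-fold enrichment and -log10 q 1222, above 88.5% of protein-coding genes. A second peak of 36.3-fold stood in the same interval 3972 bp upstream, beside the match TGACACAGC printed above, and 15.7-fold followed 280 bp before the TSS. The 48.0-fold interval with 3 copies of TGACTCAGC, 6089 bp wide with 14 summits, lay outside the region and was the highest of the intervals upstream of the 9 regions to 10 kb. The strong summits of Hmox1 stood at the TSS and at 2 places upstream, and its other 3 intervals were all under 5-fold.

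Counted over all 141 intervals, the ARE core was about as frequent as elsewhere in the list. TGACNNNGC stood in 17 of the 141 windows of 200 bp around the highest summit (12.1%, Wilson 95% interval 7.67% to 18.5%) and in 10.6% of all such windows. In intervals of at least 5-fold it stood in 7 of 37 windows (18.9%, 9.48% to 34.2%), against 12.3% of all windows of that kind. Around every summit the share at the 9 genes was 7.93% against 9.29%, and in windows of 400 bp 15.6% against 17.3%, so the side on which the 9 genes fell changed with the window. TGACTCAGC stood in 1 of 141 windows (0.709%), against 1.07% of all, and TGACTCA, which TGACTCAGC contains, in 9 (6.38%), against 9.67%. TGAGNNNGC stood in 22 (15.6%), against 14.4%. Where its letters are TGAGTCAGC, as 41 bp before the Srxn1 TSS, it holds the reverse complement of TGACTCA. The intervals cover counting error only, and windows of neighbouring summits can overlap.

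**Figure D4:**
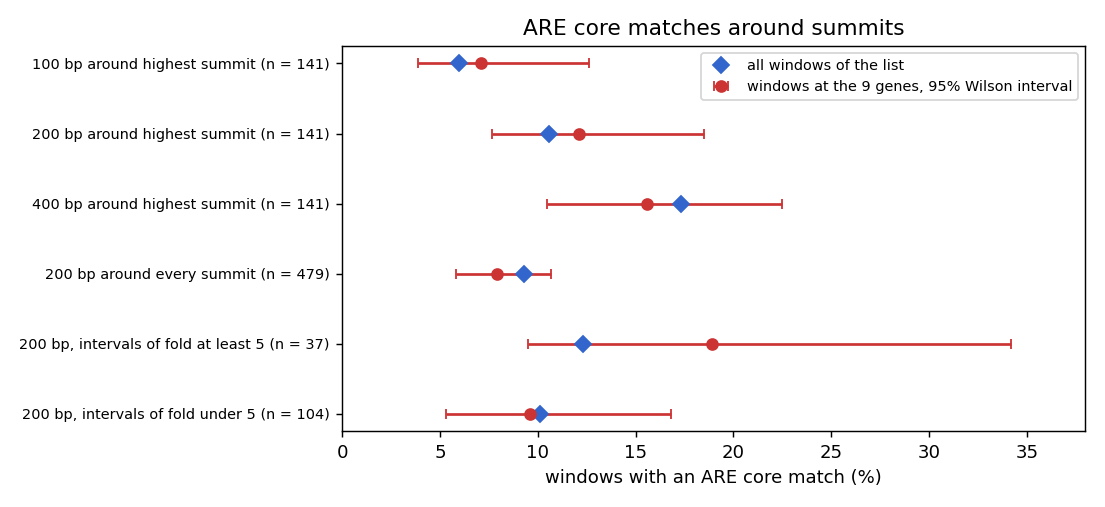
Share of windows around summits that hold the ARE core on either strand, in percent, at the 9 genes (red points with 95% Wilson intervals) and over all windows of the same kind in the list (blue diamonds), for 6 choices of window. The blue diamond lies inside the red interval in all 6 rows.

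By gene, the matches were uneven. Gclc had the core in 7 of 23 windows, Txnrd1 in 6 of 36 and Gclm in 2 of 10, Slc7a11 and Srxn1 in 1 each, and Nfe2l2, Keap1, Nqo1 and Hmox1 in none, since their matches lay beside lower summits of the same intervals or farther off. Over whole intervals there were 71 matches, or 0.416 per kb, against 0.452 per kb in all intervals. In the promoter sequence from 250 bases before to 50 after the TSS, Gclm, Srxn1 and Txnrd1 had 1 match each, 3 of 9 genes against 12.5% of protein-coding genes. These promoters also differed in base composition. The ratio of observed to expected CpG, from the highest promoter fold to the lowest, was 0.552 at Nfe2l2, 1.15 at Gclm, 0.78 at Hmox1, 0.838 at Srxn1, 0.929 at Gclc, 0.833 at Txnrd1, 0.533 at Keap1, 0.268 at Nqo1 and 0.276 at Slc7a11. The median over protein-coding promoters was 0.517.

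Most promoters of the wider pathway were accessible too. Of 51 further genes of the NRF2 pathway, 49 had a promoter interval, all 49 of at least 5-fold and 44 of at least 20-fold, with a median of 39.9 over the 51. Over all protein-coding genes these shares were 75.8%, 66.2% and 49.3%, and the median 19.4. The highest were Gsk3b, a kinase that acts on NRF2 turnover, at 99.4, Txn1, which encodes thioredoxin, at 69.4, and Nfe2l1, the gene for a factor related to NRF2, at 68.2. The lowest with an interval were the export pumps Abcc2 at 10.1 and Abcc3 at 11.5, and the glutathione transferase gene Gsta4 at 15.3. Gpx2, a glutathione peroxidase gene, and Aldh3a1, an aldehyde dehydrogenase gene, had none. By role, the median fold was 50.1 for 10 regulators, 48.0 for 5 thioredoxin and peroxiredoxin genes, 47.4 for 7 iron and haem genes, 36.6 for 6 genes of NADPH supply, 31.3 for 7 glutathione genes, 30.9 for 11 conjugation and export genes and 22.5 for 5 quinone and aldehyde genes. These role medians rest on the canonical TSS, and their order is not fixed. With any annotated TSS, Cbr1 rose from 16.2 to 45.8 and Slc3a2, a glutathione gene of the list, from 27.7 to 37.5. Aldh3a1 rose from none to 1.83. Gsta, Gstm, Gstp and Ftl1 have near-identical copies in the genome, and reads that did not map uniquely had been removed, so their values are uncertain.

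The kidney label was checked against marker genes. All 5 proximal tubule markers had a promoter interval, against 75.8% of protein-coding genes, with folds from 5.30 for Slc22a6 to 33.1 for Lrp2. Their median of 15.1 was below the 19.4 of all protein-coding genes, 1 of the 5 reached 20-fold, against 49.3%, and the summit credited to Slc34a1 lay 18535 bp from its TSS in the same interval. At the canonical TSS, the 3 markers of the thick ascending limb and distal tubule had a median of 8.51 and the 2 of the collecting duct 13.5. Of these, Slc12a3 rose from 8.38 to 38.2 with any annotated TSS, so the first median depends on the TSS chosen. Of 6 genes of other organs, 3 had a promoter interval at the canonical TSS, none of at least 5-fold. With any annotated TSS, Sftpc rose from none to 19.0, above the proximal tubule median, and Myh6 from none to 4.78. Immune, endothelial and stromal markers also had promoter intervals, from 1.90 for Ptprc to 31.2 for Cd68, whose summit lay 3567 bp from its TSS. In bulk nuclei, the share of each cell type and the accessibility per nucleus cannot be told apart.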

How the data were processed

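The libraries, from mouse kidney cortex, were grouped by genotype from their labels (3 WT, 3 Acly cKO). Per the methods and the submitters' processing notes, the authors used fastp for trimming, Bowtie2 2.3.4.3 for alignment to mm39 (unique, deduplicated reads were kept), MACS3 3.0.0 for peak calling, bedtools 2.29.1 to take out blacklisted and non-standard sequence, and deepTools 3.5.1. Values deposited for each summit are the fold enrichment, a linear ratio to the background that the authors' caller estimated, the −log10 of the q-value, a score, and as other value the offset of the summit within its interval. The score deposited by the authors was not used. The deposited list of summits before filtering held 455 summits in the 9 gene regions, as many as the filtered list. Of 460 summits of the 9 genes under 20-fold, all had a fold that was a whole multiple of 0.0655, within 0.05 of a step. Library depth is unknown.

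Rows with the same coordinates were merged to 1 interval, represented by the summit with the highest −log10 q. Gene regions ran from 3 kb before the gene start to the gene end on GENCODE M39. Coordinates are on GRCm39, counted from 1, and all sequences were read from the GRCm39 genome. Positions of matches are those of their central base, and windows ran 100, 200 or 400 bp around a summit. The members and lists were chosen with earlier results of these data known. The genes named are the 9 members. For each, the rule names the strongest interval by q, the promoter interval and up to 3 further intervals of at least 5-fold. It also names the strongest interval of at least 5-fold upstream to 10 kb. Of 51 pathway genes, it names the 3 highest, the 3 lowest and the absent promoters. Outside this rule, after the values were seen, single summits inside these intervals and intervals at other genes' TSS or past the gene ends were named. So were the 5.37-fold interval of Gclc and the stretches with several matches. The result of 1 of the marker lists is not reported here. No test was made. Wilson intervals are at 95%. The motif and overlap scripts were tested on simulated data. The analysis was run in Python 3.11.15 (scipy 1.17.1, numpy 2.4.6, matplotlib 3.10.9, pandas 2.3.3).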

Additional observations from a re-analysis of the deposited data

How the results depend on the processing

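No paired analysis was possible because the deposited values are a single call over all libraries, and for the same reason no replicate could be left out. The number of intervals at the 9 genes was 141. It fell to 91 with a −log10 q of at least 5 and to 37 with a fold enrichment of at least 5, and was 479 when summits were counted singly. With 10 kb on either side it was 190, with the highest summit inside the region 137, and over canonical transcripts only, an alternative chosen after seeing the data, 104, of which Slc7a11 held 12 in place of 35 and Txnrd1 22 in place of 36. The median promoter fold of the 9 genes was 43.4 and became 40.0 with the highest summit within 1 kb of the TSS, where Gclc took 34.9, and 8 of 9 genes stayed at 20-fold or more. The median of the strongest intervals stayed at 43.4 under both alternatives, while with 10 kb on either side the strongest interval became 35.7-fold for Keap1 and 67.3-fold for Hmox1, the latter 75 bp from the TSS of Mcm5. The share of windows with the ARE core, 12.1%, was 7.09% in windows of 100 bp, 15.6% in windows of 400 bp, 7.93% around every summit and, chosen after seeing the data, 18.9% in intervals of at least 5-fold. It was 0.709% for TGACTCAGC, 6.38% for TGACTCA and, also chosen after seeing the data, 15.6% for TGAGNNNGC. The wider pathway list kept 49 genes of at least 5-fold with any annotated TSS, and its median moved from 39.9 to 40.1. Wide intervals limit the promoter values, since the highest summit of an interval can lie kilobases from the TSS it touches, as at Gclc.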

Other observations

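Within 10 kb past the gene ends, the highest interval sat at a neighbour's start at Hmox1 and Gclm. Downstream of Hmox1, the summit of 67.3-fold lay 75 bp from the TSS of Mcm5, a subunit of the replicative helicase. Downstream of Gclm, the summit of 37.1-fold lay 41 bp from the TSS of Dnttip2. Downstream of Keap1, in contrast, the interval of 35.7-fold, which exceeds the 33.7-fold of the Keap1 promoter itself, had its summit 27750 bp from the nearest canonical TSS of another protein-coding gene, that of S1pr5. A further 3 intervals of at least 5-fold, of 5.30-fold, 15.1-fold and 6.61-fold lay between it and Keap1.

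The form TGAGNNNGC, searched after the data were seen, also stood beside strong summits. At the Hmox1 TSS it matched 2 times within 100 bp of the 58.5-fold summit, 56 bp before and 5 bp past the TSS, where TGACNNNGC did not match. At Gclc it matched 1 bp from the 43.4-fold upstream summit, and at Slc7a11 92 bp before the TSS, 66 bp from the 12.6-fold summit. At Srxn1 it matched 41 and 154 bp before the TSS. These are matches of letters in a form that 14.4% of all windows hold.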
